A study of Homo sapiens with 12 samples.

Results

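The ER membrane protein complex (EMC) is a machine of the endoplasmic reticulum membrane, and its 10 subunit genes were followed here by RNA sequencing in Ovcar8 cells. They are EMC1, EMC2, EMC3, EMC4, MMGT1 (also called EMC5), EMC6, EMC7, EMC8, EMC9 and EMC10. They were taken by gene symbol from the 58735 genes of the count table. All 10 passed the filter on low counts, which kept 15378 genes. The set was chosen by the counts of EMC10, which were nearly absent from every library with CCNE1 overexpression, so its values are a description without a test. The question asked of the other 9 was whether their transcripts followed.

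Ovcar8 is a cell line from a high-grade serous cancer of the ovary. The study had 4 groups of 3 libraries: control, CCNE1 overexpression, and CCNE1 overexpression with shTMLHE #1 or shTMLHE #2, which are hairpin RNAs against TMLHE. CCNE1 encodes cyclin E1, an activator of the kinase CDK2 at entry into S phase, and TMLHE encodes trimethyllysine hydroxylase, the first enzyme of carnitine synthesis. The cells grew in RPMI-1640 with 5% FBS, and all groups went through lentiviral transduction and selection in 3 µg/ml puromycin. Both hairpin groups also carried CCNE1 overexpression, so the group with CCNE1 overexpression alone, called the CCNE1 group below, is their reference. The labels name no non-targeting hairpin and do not say whether a group was a clone or a pool. They also do not say that replicates came from separate cultures, so p-values measure the spread between these libraries, which may be technical.

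The EMC inserts transmembrane segments into the endoplasmic reticulum membrane. Its known clients include tail-anchored proteins with moderately hydrophobic anchors and many multipass proteins, among them G protein-coupled receptors. EMC3, a relative of the bacterial insertase YidC, and EMC6 form the insertase core within the membrane. EMC1, EMC7 and EMC10 carry large domains in the lumen, EMC4 and MMGT1 are further membrane subunits, and EMC2 is a helical scaffold on the cytosolic side. EMC8 and EMC9 are paralogs that occupy the same place on EMC2, so that a complex holds one or the other. EMC10 sits at the edge of the lumenal part and is also known in a secreted form.

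Libraries held 14.1 to 16.6 M counts (control), 15.8 to 21.5 M (CCNE1 group), 14.9 to 16.3 M (shTMLHE 1) and 14.6 to 19.9 M (shTMLHE 2). Levels are given as CPM, counts per 1 M of a library size scaled by TMM factors. Both targeted genes matched the labels. CCNE1 stood at 33.0 ± 1.28 CPM (SD, n = 3) in control and 1000.3 ± 34.0 in the CCNE1 group. TMLHE stood at 15.7 ± 2.69 CPM in the CCNE1 group, 0.955 ± 0.286 with shTMLHE 1 and 0.482 ± 0.241 with shTMLHE 2. Of 10 serous and epithelial markers, 6 were above 1 CPM on average in each group, while MECOM and MUC16 had no counts in any library. Of the leukocyte, endothelial and fibroblast markers, DCN had no counts in any library, and PTPRC and CD3E had none except with shTMLHE 2. Of the 4 fibroblast markers 2 were above 1 CPM, and their summed level was 899 to 966 CPM in control, 611 to 639 in the CCNE1 group, 1533 to 1626 with shTMLHE 1 and 1256 to 1294 with shTMLHE 2. Their part in the results below was not tested. In bulk RNA, fewer cells with a transcript and less of it per cell cannot be told apart.

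EMC10 lies on chromosome 19 (GRCh38, 50476400 to 50490870, plus strand; GENCODE 29). Its promoter is shown because EMC10 and the gene that starts beside it were both close to 0 in the same libraries, as described next. The stretch below is from the RefSeq promoter table (GRCh38.p14), chr19:50476257-50476401, plus strand, and ends 2 bases into the GENCODE gene. Capitals mark each match to the cyclic AMP response element TGACGTCA, which reads the same on both strands and is the classic site of the CREB and ATF factors.
EMC10: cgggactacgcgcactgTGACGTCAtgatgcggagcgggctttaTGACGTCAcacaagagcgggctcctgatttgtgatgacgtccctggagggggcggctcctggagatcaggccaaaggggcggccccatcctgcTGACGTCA
The 3 matches begin 126, 99 and 6 bases before the GENCODE start. Of 35116 RefSeq promoters of 300 bases, 1.85% held at least 1 match, 21 held 2 or more, and EMC10 alone held 3. Of the 10 subunits 8 had an entry (not MMGT1 and EMC2), and the other 7 held no match in these windows. The motif was chosen after the sequence had been seen, and a match describes letters only.

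EMC10 had 657, 607 and 499 counts in the 3 control libraries. It had 0, 4 and 4 counts in the CCNE1 group, 0, 0 and 1 with shTMLHE 1, and 0, 3 and 0 with shTMLHE 2. No library with CCNE1 overexpression came near the control range. Pooled over libraries, EMC10 stood at 45.1 CPM in control, 0.169 in the CCNE1 group, 0.0189 with shTMLHE 1 and 0.0473 with shTMLHE 2. Control was 267-fold above the CCNE1 group. It was 2387-fold above shTMLHE 1 (exact 95% interval 428 to 94332), which rests on 1 count, and 954-fold above shTMLHE 2 (326 to 4631), which rests on 3. These intervals cover counting error only and test nothing, since the counts chose the set. Without shTMLHE 1 replicate 3, or without shTMLHE 2 replicate 2, no EMC10 count was left in that group. The ratio was 1563 without shTMLHE 1 replicate 1, 1570 without shTMLHE 1 replicate 2 and 588 without shTMLHE 2 replicate 1.

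**Figure D1:**
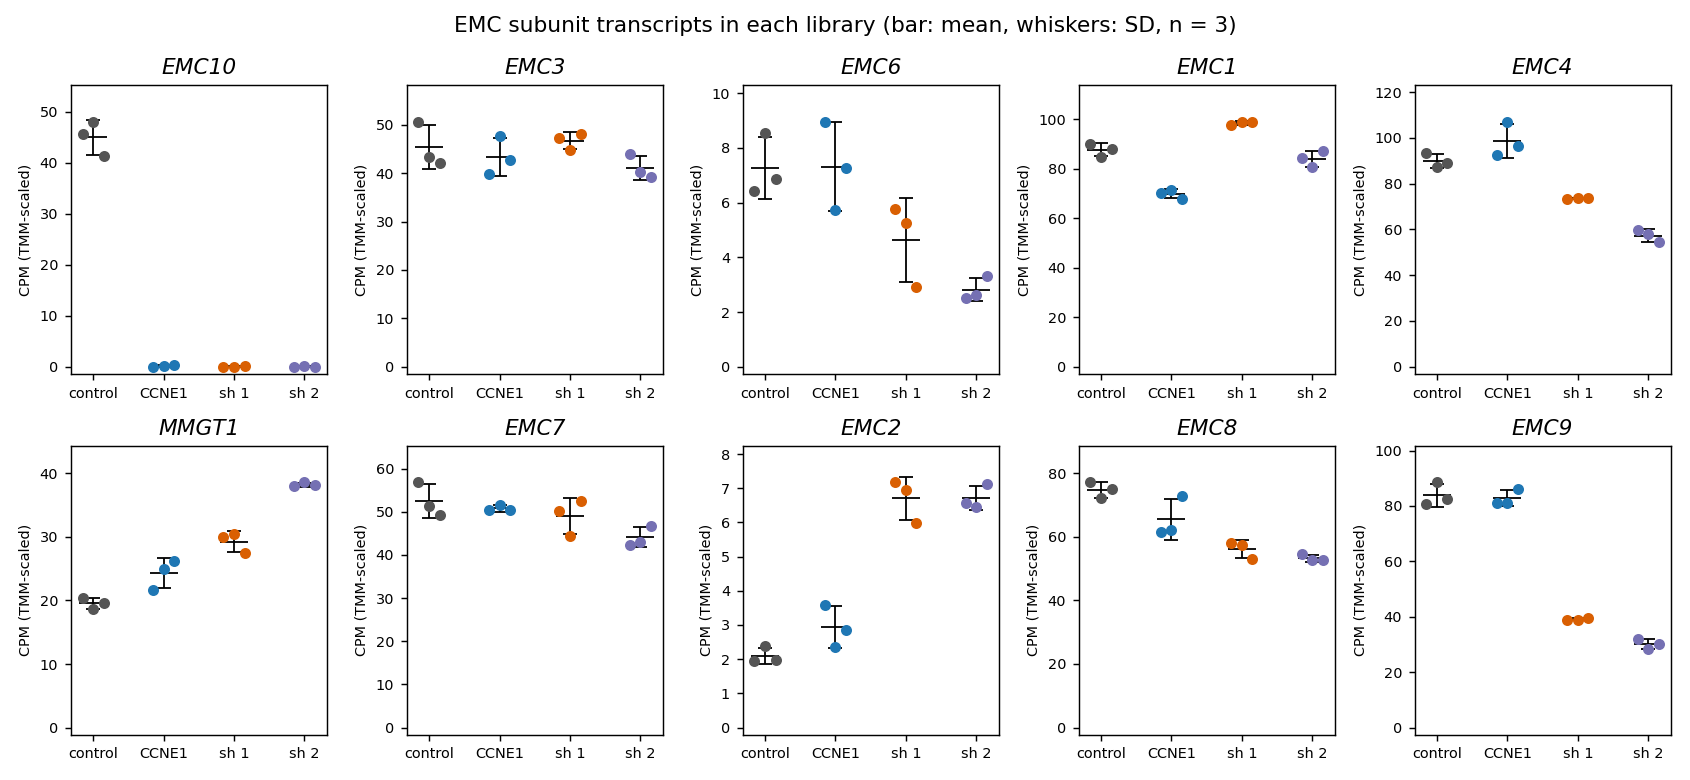
TMM-scaled CPM of each EMC subunit (vertical axis, from 0) in the 3 libraries of each group (points), with mean and SD; sh 1 and sh 2 are the hairpin groups with CCNE1 overexpression. EMC10 is at 41.3 to 48.1 CPM in control and at most 0.253 elsewhere, whereas every other subunit has counts in all 12 libraries.

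FAM71E1 starts 0.353 kb from the EMC10 start on the opposite strand, and 324 exon bases of the genes overlap. It had 45, 38 and 25 counts in control and 0 in all 9 libraries with CCNE1 overexpression. Taking 3 counts over a group as the limit that 0 allows, control was at least 43.7-fold higher than the CCNE1 group, 48.7-fold than shTMLHE 1 and 58.5-fold than shTMLHE 2. These values are a description, with no test, since FAM71E1 passed the filter on low counts through the control group alone. The strand used in counting is not given in the sources used here, so FAM71E1 reads cannot be told apart from EMC10 reads where the genes overlap.

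The genes on either side did not share this pattern in the CCNE1 group. JOSD2, a deubiquitinase of the Josephin family 15.1 kb downstream of EMC10, had 1183, 1017 and 924 counts in control and 1573, 2103 and 1661 in the CCNE1 group. It rose by 0.50 ± 0.06 on the log2 scale (± SE; edgeR's quasi-likelihood test with Benjamini-Hochberg adjustment, adjusted p = 1.03e-08). LRRC4B, a synaptic adhesion gene 26.02 kb downstream, had 84, 107 and 76 counts in control and 105, 137 and 94 in the CCNE1 group, and its difference of 0.05 ± 0.24 did not pass (edgeR adjusted p = 0.89). POLD1, the catalytic subunit of DNA polymerase delta 58.4 kb upstream, rose by 0.24 ± 0.05 (edgeR adjusted p = 9.45e-05). NR1H2, the nuclear receptor LXR beta, fell by 0.11 ± 0.04 (edgeR adjusted p = 0.038), a call that was lost without any one of 5 libraries (all control libraries, CCNE1 replicates 2 and 3; edgeR adjusted p = 0.0684 to 0.13). MYBPC2, a muscle gene 10.1 kb upstream, averaged 1.23 CPM in control and 0.815 in the CCNE1 group, with no call (edgeR adjusted p = 0.451). Of the tested coding genes within 100 kb other than FAM71E1, JOSD2 and POLD1 rose, NR1H2 fell, and LRRC4B and MYBPC2 were not called. Among all tested genes 25.1% were called higher and 19.1% lower. Within 500 kb, 5 of 17 tested genes rose and 6 fell, with 6 not called. These 6 falls include FAM71E1, whose values are a description only.

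With the hairpins, JOSD2, LRRC4B, POLD1 and NR1H2 fell against the CCNE1 group, and MYBPC2 fell with shTMLHE 2 only. JOSD2 was at 113 CPM on average in the CCNE1 group, 43.3 with shTMLHE 1 and 23.96 with shTMLHE 2. It fell by 1.38 ± 0.06 and 2.23 ± 0.07 (edgeR adjusted p = 1.91e-21 and 5.02e-28). LRRC4B was at 7.10, 1.44 and 1.17 CPM and fell with both (edgeR adjusted p = 2.16e-09 and 7.76e-11). POLD1 was at 241, 121 and 43.4 CPM and fell by 1.00 ± 0.05 and 2.48 ± 0.05 (edgeR adjusted p = 2.53e-20 and 2.29e-32). Within 500 kb, 8 of 17 tested genes fell with shTMLHE 1 and 1 rose, against 30.3% lower and 30.4% higher of all tested genes. With shTMLHE 2, 12 fell and 1 rose, against 36.2% and 36.8%. FAM71E1 is among the 17 but had 0 counts in all libraries compared here, so it could not be called. Both hairpin comparisons use the same CCNE1 libraries. JOSD2, LRRC4B and POLD1 kept their direction when libraries were scaled by total counts and when the trend with GC content and length was removed, but their falls were smaller. Without the trend JOSD2 was at -0.76 and -0.71, LRRC4B at -1.84 and -1.29, and POLD1 at -0.64 and -1.38. Under total counts POLD1 was at -0.60 with shTMLHE 1. NR1H2, at 161, 127 and 70.7 CPM, did not keep its fall with shTMLHE 1, at 0.049 and not called in either setting. With shTMLHE 2 NR1H2 was at -0.15 without the trend and -0.66 under total counts. The MYBPC2 call with shTMLHE 2 was lost without the trend (-1.69, edgeR adjusted p = 0.0509).

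**Figure D2:**
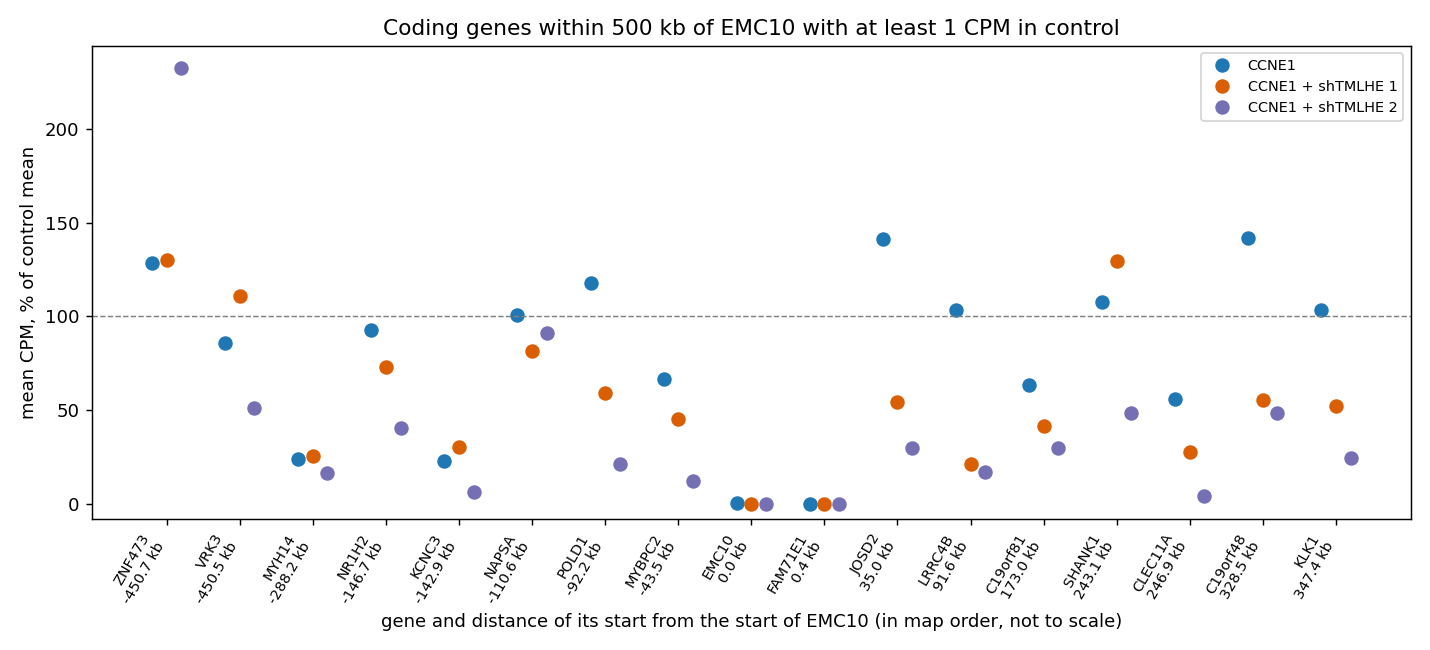
Mean CPM as a percentage of the control mean (vertical axis) for EMC10 and the protein-coding genes within 500 kb with at least 1 CPM in control, in map order, with the distance of each start from the EMC10 start in kb. EMC10 and FAM71E1 lie at or near 0 in the CCNE1 group, while JOSD2 is at 141% and POLD1 at 118%.

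The other 9 subunits did not follow EMC10 in the CCNE1 group. Of the 9, MMGT1 rose, EMC1 and EMC8 fell, and 6 were not called. Among all 15378 genes 44.2% were called in this comparison. The median difference of the 9 was -0.02 on the log2 scale, with a range of -0.33 to 0.46, against 0.05 over all tested genes. The summed level of the 9 was 463 ± 12.5 CPM (SD, n = 3) in control and 445 ± 13.6 in the CCNE1 group.

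In the insertase core, EMC3 was at 50.6, 43.4 and 42.1 CPM in control and 39.8, 47.6 and 42.7 CPM in the CCNE1 group. The groups overlapped, and the difference was -0.06 (95% interval -0.23 to 0.10). EMC6 was at 6.41, 8.55 and 6.86 CPM in control and 8.95, 5.71 and 7.28 CPM in the CCNE1 group, again overlapping. Its difference of 0.00 had a 95% interval of -0.46 to 0.46. At 83 to 120 counts per library, changes within that interval could not be told from none.

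Among the membrane subunits, EMC1 was at 90.2, 84.8 and 87.9 CPM in control and 70.3, 71.5 and 67.9 CPM in the CCNE1 group. Each CCNE1 library lay below each control library, and EMC1 fell by 0.33 ± 0.05 (edgeR adjusted p = 3.76e-06). MMGT1 was at 20.3, 18.7 and 19.6 CPM in control and 21.6, 25.0 and 26.2 CPM in the CCNE1 group. The groups did not overlap, as for 47.2% of all tested genes, and MMGT1 rose by 0.32 ± 0.10 (edgeR adjusted p = 0.00685). A fit of these 6 libraries alone gave 0.29 (edgeR adjusted p = 0.053), and with the trend across genes with GC content and length removed the value was -0.08 (adjusted p = 0.563). EMC4 was 0.14 ± 0.06 higher without passing (edgeR adjusted p = 0.0514). It passed without control replicate 1 (edgeR adjusted p = 0.0419), CCNE1 replicate 1 (0.0178) or CCNE1 replicate 3 (0.0492). EMC7 was at 49.4 to 56.8 CPM in control and 50.3 to 51.7 CPM in the CCNE1 group, a difference of -0.05 (95% interval -0.20 to 0.10).

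On the cytosolic side, EMC2 had 28, 30 and 24 counts in control and 48, 43 and 45 in the CCNE1 group. On the CPM scale the ranges were 1.95 to 2.38 and 2.36 to 3.58, which overlap, and the difference of 0.46 ± 0.25 did not pass (edgeR adjusted p = 0.139). EMC8 was at 77.1, 72.1 and 74.9 CPM in control and 61.5, 62.1 and 72.8 CPM in the CCNE1 group. CCNE1 replicate 3 lay within the control range, and EMC8 fell by 0.19 ± 0.07 (edgeR adjusted p = 0.0161). The call was lost without control replicate 1, CCNE1 replicate 1 or CCNE1 replicate 2 (edgeR adjusted p = 0.0713, 0.0859 and 0.0866), and after removal of the trend with GC content and length (-0.02, adjusted p = 0.806). EMC9, its paralog, was at 80.6, 88.5 and 82.4 CPM in control and 81.0, 81.0 and 86.0 CPM in the CCNE1 group, and differed by -0.02 (95% interval -0.14 to 0.11). Trend removal put it at 0.16, called higher (adjusted p = 0.0306).

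With the hairpins against TMLHE the subunits moved apart. With shTMLHE 1, EMC1, MMGT1 and EMC2 rose against the CCNE1 group, EMC4, EMC6, EMC8 and EMC9 fell, and EMC3 and EMC7 were not called, where 60.7% of all tested genes were called. With shTMLHE 2, EMC1, MMGT1 and EMC2 rose, EMC4, EMC6, EMC7, EMC8 and EMC9 fell, and EMC3 was not called, where 73% of all tested genes were called. The medians of the 9 were -0.05 and -0.21, against 0.03 and 0.03 over all tested genes. These comparisons share the CCNE1 libraries, so their values are given side by side and are not independent. The directions depend on the scaling between libraries. Scaling by total counts alone moved the median of all tested genes to 0.43 with shTMLHE 1 and 0.56 with shTMLHE 2, and the share of calls that were higher from 50.04% to 75.9% and from 50.4% to 70.7%. TMM factors were 0.848 to 0.864 in the control and CCNE1 groups and 1.11 to 1.23 with the hairpins.

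**Figure D3:**
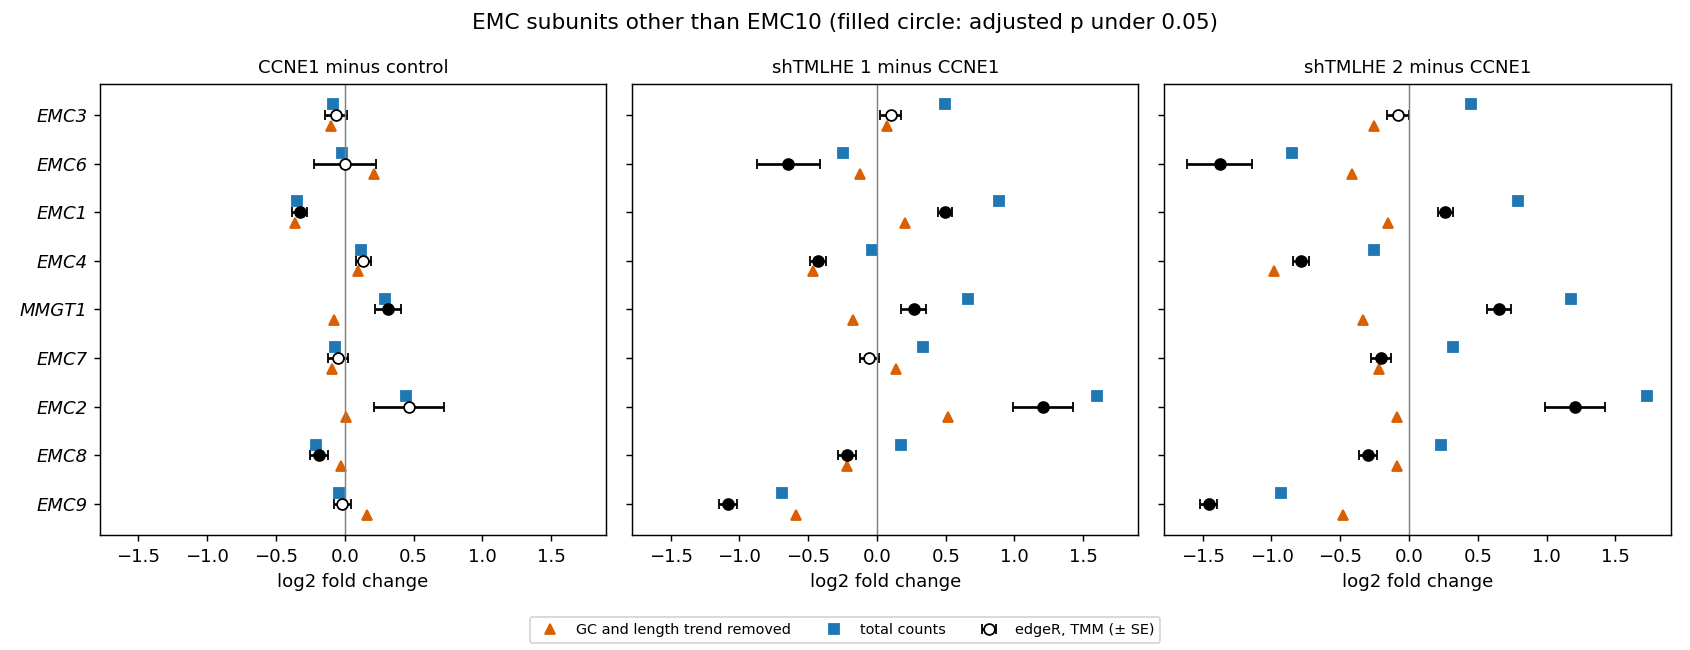
Log2 fold change (horizontal axis) of the 9 subunits other than EMC10 in 3 comparisons: edgeR with TMM scaling (circles, bars are SE, filled where called), scaling by total counts (squares) and after removing the trend with GC content and length (triangles). EMC9 stays below 0 with both hairpins under all 3, whereas EMC7 and EMC8 lie above 0 with both hairpins under total counts, and MMGT1 lies below 0 in all 3 comparisons without the trend.

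EMC9 fell the most of the 9 with each hairpin under TMM scaling, though the SEs of EMC9 and EMC6 overlapped with shTMLHE 2. It was at 38.9, 38.8 and 39.4 CPM with shTMLHE 1 and 31.9, 28.2 and 30.1 CPM with shTMLHE 2, all below the lowest CCNE1 library at 81.0. EMC9 fell by 1.08 ± 0.06 with shTMLHE 1 (edgeR adjusted p = 8.88e-18) and by 1.46 ± 0.06 with shTMLHE 2 (4.08e-22). Without the trend, EMC9 remained lower, at -0.59 and -0.48, and EMC4 fell further than EMC9 with shTMLHE 2 (-0.98). Under total counts EMC9 was at -0.69 and -0.93. EMC8 was at 58.1, 57.4 and 53.0 CPM with shTMLHE 1 and 54.5, 52.7 and 52.6 CPM with shTMLHE 2. It fell by 0.22 ± 0.07 (edgeR adjusted p = 0.00365) and 0.30 ± 0.06 (9.41e-05), and under total counts it was higher instead, by 0.17 and 0.23. With shTMLHE 1 the EMC8 call was lost without CCNE1 replicate 3 (edgeR adjusted p = 0.0749), and with shTMLHE 2 it was lost without the trend (-0.09, adjusted p = 0.204).

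A ratio of genes within a library is free of the scaling of whole libraries, but not of the trend with GC content and length. EMC9 over EMC8 was 1.12 ± 0.094 in control, 1.27 ± 0.075 in the CCNE1 group, 0.696 ± 0.041 with shTMLHE 1 and 0.564 ± 0.026 with shTMLHE 2 (SD, n = 3). The lowest ratio without a hairpin was 1.05 and the highest with one was 0.743. With 3 libraries against 3 an exact permutation test cannot go below p = 0.1, and none is given. A ratio shows unequal change of the paralogs, not which of them changed. EMC9 has 59.3% GC and EMC8 53.2%. The log2 change of the ratio from the CCNE1 group was -0.86 with shTMLHE 1 and -1.16 with shTMLHE 2, and with the trend removed it was -0.37 and -0.39.

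EMC2, the scaffold that holds either paralog, had 131, 126 and 99 counts with shTMLHE 1 and 160, 137 and 127 with shTMLHE 2, against 43 to 48 in the CCNE1 group. All hairpin libraries lay above all others, and EMC2 rose by 1.21 ± 0.22 with each hairpin (edgeR adjusted p = 8.72e-06 and 5.27e-06). After the trend with GC content and length was removed, EMC2 was 0.52 higher with shTMLHE 1 (adjusted p = 0.0419) and -0.08 with shTMLHE 2 (0.751).

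Among the membrane subunits, EMC4 was at 73.2, 73.7 and 73.6 CPM with shTMLHE 1 and 59.7, 57.8 and 54.4 CPM with shTMLHE 2, against 92.6 to 107 CPM in the CCNE1 group. The groups did not overlap, as for 63.9% and 75.6% of all tested genes. EMC4 fell by 0.43 ± 0.06 (edgeR adjusted p = 2.49e-08) and 0.79 ± 0.06 (2.36e-15), and with total counts these were -0.03 (adjusted p = 0.601) and -0.26 (0.000126). MMGT1 was at 29.9, 30.4 and 27.4 CPM with shTMLHE 1 and 38.0, 38.6 and 38.2 CPM with shTMLHE 2. It rose by 0.27 ± 0.09 (edgeR adjusted p = 0.0099) and 0.65 ± 0.09 (1.95e-08). The first call was lost without CCNE1 replicate 1 (edgeR adjusted p = 0.0726). With the trend removed MMGT1 was below 0 in both. It was at -0.17 with shTMLHE 1 (edgeR adjusted p = 0.0925, not called) and -0.33 with shTMLHE 2 (0.000792). Under total counts it was higher, by 0.66 and 1.18. Both genes encode membrane subunits, and their ratio within a library, MMGT1 over EMC4, went from 0.217 ± 0.0031 in control and 0.246 ± 0.022 in the CCNE1 group to 0.398 ± 0.022 with shTMLHE 1 and 0.668 ± 0.033 with shTMLHE 2. No values of the hairpin groups overlapped those of the others or each other. The log2 change of this ratio from the CCNE1 group was 0.69 and 1.44, and with the trend removed 0.30 and 0.65.

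The other 2 ratios computed separated the groups less or rested on few counts. EMC6 over EMC3, within the insertase core, was 0.162 ± 0.035 in control, 0.172 ± 0.052 in the CCNE1 group, 0.0999 ± 0.034 with shTMLHE 1 and 0.069 ± 0.014 with shTMLHE 2 (SD, n = 3). The CCNE1 group, at 0.120 to 0.225, overlapped shTMLHE 1, at 0.0604 to 0.122. With the trend removed its log2 change from the CCNE1 group went from -0.74 to -0.19 and from -1.30 to -0.16. EMC2 over EMC1 was 0.0241 ± 0.0034 in control, 0.042 ± 0.009 in the CCNE1 group, 0.0681 ± 0.0067 with shTMLHE 1 and 0.0799 ± 0.0019 with shTMLHE 2. These groups did not overlap, and with the trend removed the change from the CCNE1 group went from 0.71 to 0.32 and from 0.94 to 0.07.

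**Figure D4:**
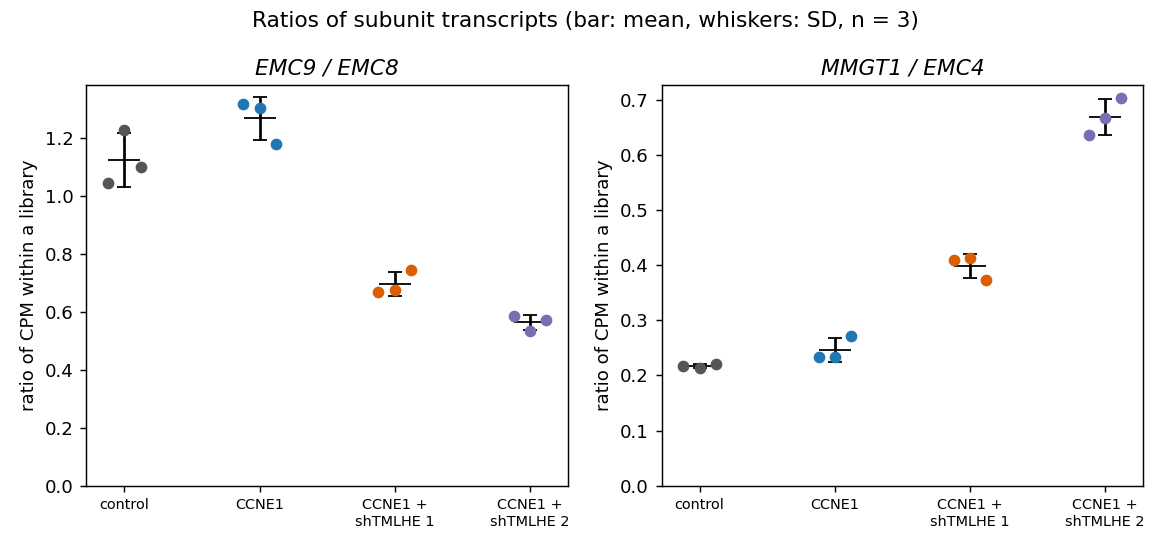
Ratio of CPM within each library (vertical axis, from 0) for EMC9 over EMC8 and MMGT1 over EMC4, with the mean and SD of each group of 3 libraries. The first is above 1 without a hairpin and below 0.75 with one, and the second is highest with shTMLHE 2, at 0.636 to 0.702.

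EMC1, the largest lumenal subunit, was at 97.6, 99.0 and 98.9 CPM with shTMLHE 1 and 84.3, 80.7 and 87.1 CPM with shTMLHE 2. Both hairpin groups lay above the CCNE1 group, where EMC1 was lowest. EMC1 rose by 0.49 ± 0.05 (edgeR adjusted p = 1.17e-10) and 0.26 ± 0.05 (2.3e-05). With the trend removed, these values were 0.20 (adjusted p = 0.000686) and -0.15 (0.00856), and under total counts 0.89 and 0.79. EMC7 was at 50.1, 44.3 and 52.4 CPM with shTMLHE 1, a difference of -0.05 (95% interval -0.20 to 0.09). With shTMLHE 2 it was at 42.4, 43.1 and 46.7 CPM and fell by 0.21 ± 0.07 (edgeR adjusted p = 0.0102), a call lost without shTMLHE 2 replicate 1 (0.0535). Under total counts EMC7 was higher instead, by 0.34 and 0.32.

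In the insertase core, EMC3 was at 47.2, 44.7 and 48.1 CPM with shTMLHE 1 and 43.9, 40.2 and 39.2 CPM with shTMLHE 2. Both overlapped the CCNE1 group, with differences of 0.10 (95% interval -0.06 to 0.26) and -0.08 (-0.24 to 0.08). Under total counts EMC3 was higher, by 0.49 and 0.45, and without the trend it was lower with shTMLHE 2 (-0.26, adjusted p = 0.00359). EMC6 was at 5.75, 5.25 and 2.90 CPM with shTMLHE 1 and 2.50, 2.64 and 3.31 CPM with shTMLHE 2. It fell by 0.64 ± 0.23 (edgeR adjusted p = 0.0147) and 1.38 ± 0.24 (2.66e-06). The first call was lost without CCNE1 replicate 1 (-0.48, edgeR adjusted p = 0.0948) or shTMLHE 1 replicate 3 (-0.40, 0.141). Without the trend both were lost, at -0.12 (adjusted p = 0.682) and -0.42 (0.128), and under total counts the first was lost (-0.25, adjusted p = 0.344) and the second was -0.85. The EMC6 values are uncertain, since 74.3% of its exon bases are shared with P2RX5-TAX1BP3, a readthrough gene on the opposite strand with 7 to 28 counts per library.

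The hairpins were also compared with each other. EMC6, EMC9, EMC4, EMC1 and EMC3 were higher with shTMLHE 1 than with shTMLHE 2, MMGT1 was lower, and EMC2, EMC7 and EMC8 were not called, where 60.3% of all tested genes were called, 31.3% higher and 29% lower. For 69.7% of all tested genes the hairpin groups did not overlap. EMC2 differed by 0.00 (95% interval -0.40 to 0.40) and EMC8 by 0.08 (-0.05 to 0.21). EMC7 was 0.15 higher (edgeR adjusted p = 0.0636) and passed without shTMLHE 1 replicate 2 (0.0158) or shTMLHE 2 replicate 3 (0.0393). TMLHE itself was 1.03 ± 0.37 higher with shTMLHE 1 (edgeR adjusted p = 0.0154), a call lost without shTMLHE 1 replicate 3 (0.112) or shTMLHE 2 replicate 1 (0.137). CCNE1 was higher as well, at 1267 ± 48.98 CPM against 846 ± 21.2 (SD, n = 3).

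The summed level of the 9 subunits was 403 ± 4.03 CPM with shTMLHE 1 and 358 ± 6.74 with shTMLHE 2, below the 445 ± 13.6 of the CCNE1 group. As CPM of the plain column total the order turned, with 399 ± 11.9 in control, 378 ± 12.3 in the CCNE1 group, 450 ± 6.59 with shTMLHE 1 and 438 ± 7.08 with shTMLHE 2. The direction of the sum therefore depends on the scaling.

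GC content moved with these differences. Over the 99.97% of tested genes with a GC value, the Spearman correlation of log2 fold change with GC content was -0.388 for CCNE1 against control, -0.376 for shTMLHE 1 and -0.649 for shTMLHE 2 against the CCNE1 group. MMGT1 (39.2% GC) and EMC2 (36.5%) fell in the lowest of 10 equal classes of GC content, whose median differences were 0.50, 0.67 and 1.31 in these comparisons. MMGT1 rose less than that median in each. EMC6 (58.2%) was in class 8, with medians of -0.19, -0.19 and -0.67. EMC9 (59.3%) was in class 9, with medians of -0.13, -0.32 and -0.92. EMC9 fell beyond that median with both hairpins, as did EMC4 (47.4% GC) beyond the medians of 0.04 and 0.13 in class 5. EMC6 also fell beyond its class medians with both hairpins, though both calls were lost with the trend removed. EMC10 itself has 59.3% GC. In the CCNE1 group the median of class 9 was -0.13, and EMC9, with the same GC content as EMC10, was at 82.7 ± 2.88 CPM (SD, n = 3). Whether GC content had a part in the EMC10 counts was not tested.

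**Figure D5:**
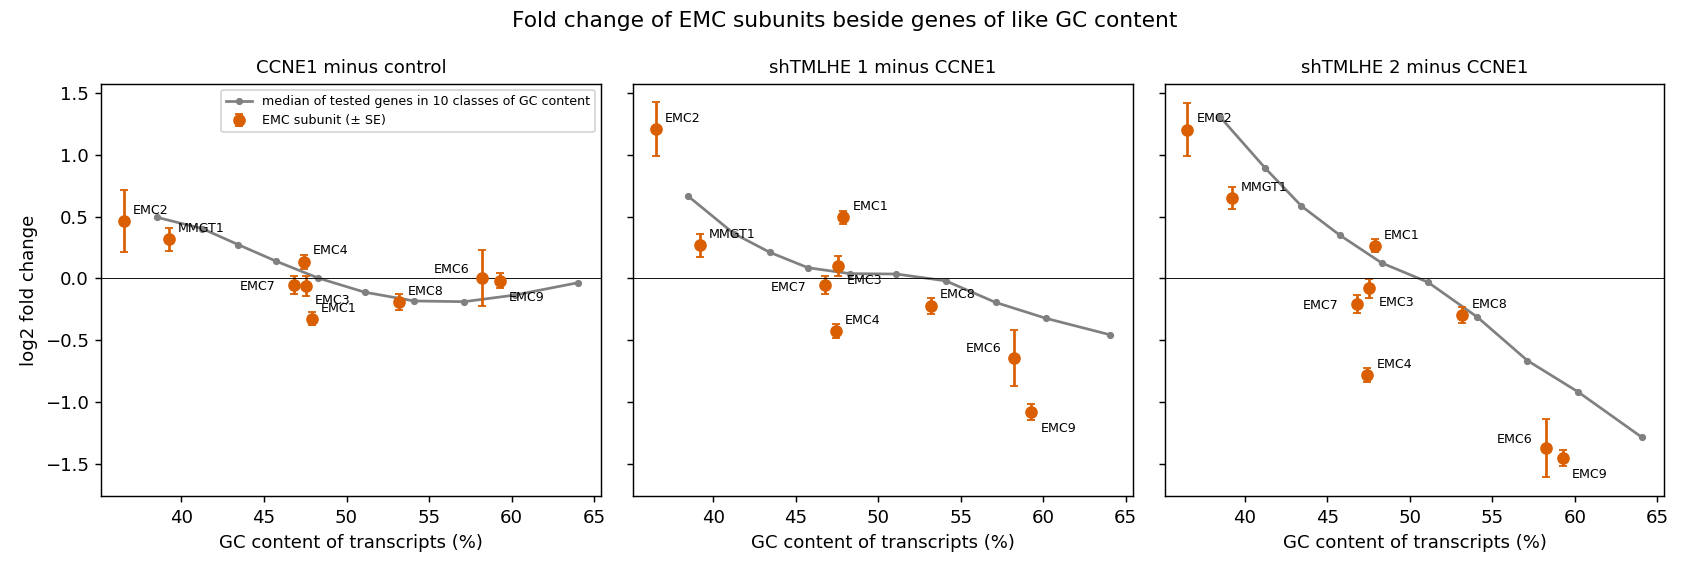
Log2 fold change (vertical axis) against GC content of the transcripts in percent (horizontal axis) for the 9 subunits other than EMC10 (points, bars are SE), beside the median of all tested genes in each of 10 classes of GC content (line). With shTMLHE 2 the line runs from 1.31 to -1.29, and EMC2 lies near its upper end while MMGT1, EMC3, EMC4, EMC6, EMC7 and EMC9 lie below it.

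Between genes, levels can be compared only per length. Per kb of exon union, control CPM ran from 52.8 ± 2.61 for EMC9 and 34.1 ± 2.51 for EMC7 through 20.2 ± 0.675 for EMC4 and 18.6 ± 0.623 for EMC8 to 10.6 ± 1.07 for EMC3. EMC6 at 9.46 ± 1.47 and EMC1 at 9.11 ± 0.278 overlapped, and EMC6 also overlapped EMC3. MMGT1 at 5.23 ± 0.219, EMC10 at 4.19 ± 0.322 and EMC2 at 0.556 ± 0.0627 came last without overlap (SD, n = 3). EMC10 thus ranked 9 of 10 in control and 10 of 10 in the other groups. With shTMLHE 2, EMC7 at 28.7 ± 1.51 led EMC9 at 18.9 ± 1.16, and MMGT1 at 10.2 ± 0.0836 overlapped EMC3 at 9.63 ± 0.578. The lengths weigh on this order, since the exon unions of EMC10 (10748 bases) and EMC1 (9623 bases) are long. By the principal transcript, EMC4 at 86.8 ± 2.90 overlapped EMC9 at 87.9 ± 4.36 in control. EMC10, at 4.37 to 5.09, then overlapped MMGT1, at 5.00 to 5.44, and again ranked 9 of 10.

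Other overlaps were smaller. EMC10 shares 12.3% of its exon bases with FAM71E1 and 2 noncoding genes. EMC9 shares 20.2% of its exon bases, mostly with AL136295.2, which had 2 to 21 counts per library. EMC3 shares 7.61%, mostly with EMC3-AS1, which had 13 to 135 counts and rose with shTMLHE 2 by 1.29 ± 0.32 (edgeR adjusted p = 0.000505). For EMC1, EMC4, MMGT1, EMC7, EMC2 and EMC8 the share was 0 to 5.14%.

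Hairpin libraries set against control are given as a description, and 72% and 81.3% of all tested genes did not overlap there. Relative to control, mean CPM with shTMLHE 1 and shTMLHE 2 was 0.466-fold and 0.359-fold for EMC9, 0.637-fold and 0.387-fold for EMC6, 0.817-fold and 0.637-fold for EMC4, and 0.752-fold and 0.713-fold for EMC8. It was 1.498-fold and 1.96-fold for MMGT1 and 3.19-fold with each for EMC2. EMC1 was at 1.12-fold and 0.959-fold, and EMC3 at 1.03-fold and 0.906-fold.

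Likeness to EMC10 was measured by Pearson's r of log2 CPM over the 12 libraries, which follows mainly whether a gene separates control from the rest. Among subunits it was 0.82 for EMC8, 0.63 for EMC9, 0.52 for EMC7, 0.48 for EMC6, 0.45 for EMC4, 0.22 for EMC3, 0.08 for EMC1, -0.75 for MMGT1 and -0.79 for EMC2. The 8 tested genes most like it were LINC02582 (0.991), ADAMTS1 (0.987), TLX1NB (0.986), FAM71E1 (0.985), ING5 (0.984), IFI27 (0.981), TP53I11 (0.978) and ACTC1 (0.975). FAM71E1 neighbours EMC10, and no other subunit was among the 8. The list was drawn with the EMC10 values that chose the set, so it is a description without a test. FAM71E1, TLX1NB and TP53I11 also passed the filter on low counts through the control group alone. TLX1NB averaged 1.32 ± 0.192 CPM in control and had no counts elsewhere, and TP53I11 averaged 4.83 ± 1.33 CPM in control and at most 0.0182 elsewhere. ADAMTS1, a secreted metalloprotease, went from 155 ± 2.38 to 80.9 ± 2.85 CPM in the CCNE1 group, a far smaller change than that of EMC10.

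Known clients of the EMC were examined at the RNA level. FDFT1, squalene synthase, fell in the CCNE1 group by 0.76 ± 0.03 (edgeR adjusted p = 5.24e-20). It fell further with the hairpins, by 0.28 ± 0.04 and 0.36 ± 0.04, but was 0.11 and 0.17 higher under total counts. SOAT1, sterol O-acyltransferase, rose by 0.40 ± 0.07 in the CCNE1 group (edgeR adjusted p = 1.96e-05) and by 0.80 ± 0.07 and 1.07 ± 0.06 with the hairpins. Once the trend was removed, SOAT1 was at -0.01 in the CCNE1 group, 0.24 with shTMLHE 1 and -0.04 with shTMLHE 2, and under total counts it was at 1.20 and 1.59 with the hairpins. ADRB1, a beta-adrenergic receptor, was not called in any of these comparisons, but its counts were low. It had 16, 20 and 10 counts in control, 5, 5 and 23 in the CCNE1 group and 29, 26 and 16 with shTMLHE 1. When single libraries were left out, 1 to 2 clients were lower in the CCNE1 group and 1 to 2 higher with shTMLHE 1. FDFT1 and SOAT1 kept their directions there, so the added calls were of ADRB1.

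Of the 7 genes of the tail-anchor insertion pathway, which delivers a related class of proteins to the same membrane, 2 rose and 2 fell in the CCNE1 group, where 25.1% of all tested genes rose and 19.1% fell. With shTMLHE 1, 5 of 7 fell and all 7 differences lay below 0, at -1.41 to -0.17 (median -0.61). With shTMLHE 2 all 7 fell (median -1.23), where 30.3% and 36.2% of all tested genes fell. The medians over all tested genes were 0.03 in both. BAG6, a chaperone of the pathway, fell by 0.61 ± 0.03 and 1.23 ± 0.03. SGTA, a co-chaperone, fell by 0.67 ± 0.04 and 1.64 ± 0.04. ASNA1, the targeting ATPase, fell by 1.42 ± 0.05 with shTMLHE 2. UBL4A fell by 0.62 ± 0.04 with shTMLHE 1. Under total counts 4 and 6 of the 7 fell, and with the trend removed 5 and 6. Over all tested genes, 75.9% and 70.7% of calls were higher under total counts, and 42.7% and 43.7% with the trend removed. Without the trend BAG6 was at -0.40 and -0.54, SGTA at -0.35 and -0.80, ASNA1 at -0.61 and UBL4A at -0.19, and total counts put BAG6 at -0.22 and -0.70, SGTA at -0.27 and -1.11, ASNA1 at -0.89 and UBL4A at -0.22.

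Of 12 genes of the Sec translocon and its partners, 5 rose and 4 fell in the CCNE1 group, 3 rose and 6 fell with shTMLHE 1, and 8 rose and 3 fell with shTMLHE 2. In these comparisons 25.1%, 30.4% and 36.8% of all tested genes rose and 19.1%, 30.3% and 36.2% fell. The list's medians were -0.0035, -0.26 and 0.44, against 0.05, 0.03 and 0.03 over all tested genes. TRAM1, which helps chains enter the membrane, rose by 0.93 ± 0.05 in the CCNE1 group and by 1.03 ± 0.05 with shTMLHE 2. SEC61A1, the channel subunit, fell by 0.32 ± 0.04 and SEC61G by 0.55 ± 0.06 in the CCNE1 group. SSR4, of the translocon-associated complex, fell by 1.39 ± 0.05 and 1.71 ± 0.05 with the hairpins. With the trend removed, 4 rose and 6 fell with shTMLHE 2, where 43.7% of the 9657 calls over all tested genes were higher. Under total counts 6 rose and 5 fell with shTMLHE 1, where 75.9% of the 10329 calls over all tested genes were higher. Without the trend TRAM1 was at 0.54 in the CCNE1 group and 0.08 with shTMLHE 2 (adjusted p = 0.116, no longer called), SEC61A1 was at -0.17, SEC61G at -0.89 and SSR4 at -1.10 and -0.89. Total counts put TRAM1 at 1.56 with shTMLHE 2.

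Of 8 signal recognition genes, 2 rose and 1 fell in the CCNE1 group, 2 rose and 3 fell with shTMLHE 1, and 5 rose and 1 fell with shTMLHE 2. Across all tested genes 25.1%, 30.4% and 36.8% rose and 19.1%, 30.3% and 36.2% fell, so the list's share of rises in the CCNE1 group was at the background. Medians of the list were 0.0066, -0.07 and 0.26, against 0.05, 0.03 and 0.03. SRP9, an Alu domain protein of the particle, fell by 1.499 ± 0.06 with shTMLHE 1 and rose by 0.71 ± 0.06 with shTMLHE 2, a direct difference of -2.20 ± 0.06 (edgeR adjusted p = 4.26e-28). SRP9 was at -0.04 with shTMLHE 2 once the trend was removed (adjusted p = 0.567) and at 1.23 under total counts. SRP72 rose by 0.72 ± 0.05 in the CCNE1 group and fell by 0.54 ± 0.05 with shTMLHE 1. Without the trend SRP72 was at 0.29 and -1.14, and total counts put the second at -0.15. With the trend removed, 1 rose and 3 fell with shTMLHE 2, where 43.7% of the 9657 calls over all tested genes were higher. Under total counts 6 rose and 2 fell with shTMLHE 1, where 75.9% of the 10329 calls over all tested genes were higher.

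Of 8 tested genes of the multipass translocon, which works beside the EMC on proteins with many membrane segments, 2 rose and 3 fell in the CCNE1 group, 2 rose and 5 fell with shTMLHE 1, and 3 rose and 2 fell with shTMLHE 2. For comparison, 25.1%, 30.4% and 36.8% of all tested genes rose and 19.1%, 30.3% and 36.2% fell, near the list's rises in the CCNE1 group and with shTMLHE 2. The list had medians of -0.05, -0.37 and 0.04, where all tested genes had 0.05, 0.03 and 0.03. TMEM147 fell by 1.31 ± 0.05 and 2.04 ± 0.06 with the hairpins, and NCLN, nicalin, by 0.65 ± 0.04 and 1.20 ± 0.04. CCDC47 rose by 1.16 ± 0.08 with shTMLHE 2. NOMO1 fell by 0.64 ± 0.05 in the CCNE1 group, but NOMO1 and NOMO2 are near-identical copies whose reads the counting could split. Under total counts 2 rose and 2 fell with shTMLHE 1, where 75.9% of the 10329 calls over all tested genes were higher. Without the trend NCLN was at -0.26 and -0.11 (adjusted p = 3.03e-07 and 0.0127), TMEM147 at -1.19 with shTMLHE 2 and CCDC47 at 0.59. Under total counts NCLN was at -0.25 and -0.68.

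Of 22 genes of ER-associated degradation, the pathway that clears proteins that fail to insert or fold, 7 rose and 9 fell in the CCNE1 group, 12 rose and 7 fell with shTMLHE 1, and 10 rose and 9 fell with shTMLHE 2. The background was that 25.1%, 30.4% and 36.8% of all tested genes rose and 19.1%, 30.3% and 36.2% fell. Medians were -0.02, 0.20 and -0.0020, against 0.05, 0.03 and 0.03 over all tested genes. RNF5, a ubiquitin ligase, fell by 0.66 ± 0.04 and 1.14 ± 0.04 with the hairpins. SEL1L, the partner of the ligase SYVN1, fell by 1.36 ± 0.10 with shTMLHE 1, and EDEM2, a mannosidase, by 2.39 ± 0.11 with shTMLHE 2. UBXN4 rose by 1.24 ± 0.06 with shTMLHE 2. With the trend removed, 6 rose and 10 fell with shTMLHE 2, where 43.7% of the 9657 calls over all tested genes were higher. RNF5 was then at -0.37 and -0.59 and UBXN4 at 0.37, and total counts put RNF5 at -0.27 and -0.61, UBXN4 at 1.77 and SEL1L at -0.97.

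Of 17 genes of signal peptidase and oligosaccharyltransferase, which cut signal peptides and attach N-glycans, 5 rose and 6 fell in the CCNE1 group, 5 rose and 6 fell with shTMLHE 1, and 7 rose and 7 fell with shTMLHE 2. Here too 25.1%, 30.4% and 36.8% of all tested genes rose and 19.1%, 30.3% and 36.2% fell, so the list's rises were near the background. Its medians were -0.0078, 0.01 and 0.38, against 0.05, 0.03 and 0.03. DAD1 fell by 0.84 ± 0.04 and 1.03 ± 0.04 and TMEM258 by 0.94 ± 0.05 and 1.47 ± 0.05 with the hairpins, while STT3B, a catalytic subunit, rose by 1.16 ± 0.05 with shTMLHE 2. Under total counts 10 rose and 4 fell with shTMLHE 1 and 12 rose and 4 fell with shTMLHE 2. Over all tested genes, 75.9% and 70.7% of calls were higher there. With the trend removed 1 rose and 8 fell, and 4 rose and 9 fell, where 42.7% and 43.7% of all calls were higher. Total counts put DAD1 at -0.45 and -0.50 and TMEM258 at -0.55 and -0.94, and without the trend STT3B was at 0.62.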

How the data were processed

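RNA was sequenced from 12 libraries of Ovcar8 cells, 3 per group, with groups taken from the sample labels. The authors deposited whole-number counts per gene for 58735 genes, not normalized. Per the submitters' processing notes, STAR 2.6.1, DESeq2 and the GRCh38 build were used. Which program counted reads, and on which strand, is not given in the sources used. The FPKM deposited by the authors imply a library size of 0.819 to 1.21 times each column's sum; they therefore carry their own scaling and served in alternatives only. Gene coordinates and lengths in the files equalled GENCODE 29 for 100% of genes.

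Tests ran in R 4.3.3 with edgeR 4.0.16 (limma 3.58.1 in alternatives). Genes were filtered with filterByExpr by group (15378 kept), scaled by TMM and fitted over all 12 libraries with 1 mean per group and 8 residual degrees of freedom (robust quasi-likelihood). P-values were Benjamini-Hochberg adjusted over all tested genes and called under 0.05. Alternatives were RLE, upper quartile and total count scaling, no filter, DESeq2 1.42.0, limma-voom, limma-trend on log2 FPKM with a pseudocount of 0.1 or 1, fits of the 2 compared groups, a replicate block, omission of each library, stricter thresholds, and removal of the trend with GC content and length. On simulated counts for CCNE1 against control over 15378 genes, 58% of 100 genes changed 1.5-fold and 70% of 100 changed 2-fold were called. Only 200 genes were changed there, whereas 44.2% of genes were called in the data. The adjustment depends on that share, so these rates are not the sensitivity of the reported test.

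Members and gene lists were chosen with earlier results of these data known. Named were the 10 members, CCNE1, TMLHE, genes overlapping members, tested coding genes within 100 kb of EMC10, up to 3 called genes of smallest p per list and comparison, and the 8 genes most like EMC10. Motifs were searched in RefSeq promoters.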

Additional observations from a re-analysis of the deposited data

Results flagged for a closer look

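The direct comparison of the hairpins differed for 6 subunits, each by edgeR's quasi-likelihood test of shTMLHE 1 minus shTMLHE 2 on the log2 scale. EMC6 was 0.73 ± 0.24 higher with shTMLHE 1 (adjusted p = 0.00886), and without shTMLHE 1 replicate 1 it was 0.55 higher and not called (adjusted p = 0.0873). EMC9 was 0.37 ± 0.07 higher (edgeR adjusted p = 7.59e-06), EMC4 0.36 ± 0.06 higher (1.22e-06) and EMC1 0.23 ± 0.05 higher (0.000142). MMGT1 was -0.38 ± 0.09, lower with shTMLHE 1 (edgeR adjusted p = 0.00016). EMC3 was 0.18 ± 0.08 higher (edgeR adjusted p = 0.0422), and that call was lost without shTMLHE 1 replicate 1 or 3 or shTMLHE 2 replicate 2 or 3, at 0.15 to 0.17. After removal of the trend with GC content and length, EMC9 was at -0.11 (adjusted p = 0.185) and MMGT1 at 0.16 (0.104), so both signs turned. The EMC6 call was lost there as well (0.30, adjusted p = 0.337), and EMC2 (0.60, adjusted p = 0.0106) and EMC7 (0.36, 4.1e-05) were called higher. Under total counts EMC1 (0.10, adjusted p = 0.1) and EMC3 (0.05, 0.634) were not called. Of all tested genes 60.3% were called in this comparison. TMLHE was at 0.955 CPM with shTMLHE 1 and 0.482 CPM with shTMLHE 2, CCNE1 differed too, and their part in these differences was not tested.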

How the results depend on the processing

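The main limits are 3 libraries per group, counts of 24 to 48 for EMC2 in the control and CCNE1 groups, and a scaling between hairpin and other libraries that turns directions. For CCNE1 minus control, the number of subunits lower was 2, and became 1 at adjusted p under 0.01 or after removal of the trend with GC content and length, and 0 with a fold of at least 1.5. The number higher was 1, and became 2 with RLE or limma-voom and 0 with the compared groups alone or a fold of at least 1.5. For shTMLHE 1 minus CCNE1, total counts gave 1 lower and 6 higher (4 and 3 with TMM), the fold limit 2 and 1, and trend removal 2 higher. For shTMLHE 2 minus CCNE1, total counts gave 3 lower and 6 higher (5 and 3), and the fold limit 3 lower and 2 higher. Trend removal gave 6 lower there, EMC1 and MMGT1 among them, and 0 higher. For shTMLHE 1 minus shTMLHE 2, total counts gave 3 higher (5), the fold limit 1 higher and 0 lower, and trend removal 0 lower (1). Over all tested genes, total counts gave 10329 calls for shTMLHE 1, 11761 for shTMLHE 2 and 9463 between hairpins. Of these 75.9%, 70.7% and 42.3% were higher. Trend removal gave 5550 calls for CCNE1 minus control, 55.5% of them higher. In the other comparisons it gave 8689, 9657 and 7375 calls, with 42.7%, 43.7% and 51.9% higher. Leaving out each library gave 1 to 2 lower and 1 to 2 higher for CCNE1 minus control, 3 to 4 and 2 to 3 for shTMLHE 1, 4 to 5 and 3 to 3 for shTMLHE 2, and 1 to 1 and 3 to 6 between the hairpins.

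Called signs turned with the trend removed for MMGT1 (-0.078, -0.17, -0.33 and, between hairpins, 0.16), EMC9 (0.16 for CCNE1 and -0.11 between hairpins), EMC1 (-0.15) and EMC2 (-0.085) with shTMLHE 2, NR1H2 (0.0020 for CCNE1, 0.049 for shTMLHE 1), JOSD2 (-0.049 between hairpins), SOAT1 (-0.0092 for CCNE1, -0.038 for shTMLHE 2), SRP9 (-0.036) and SRP54 (-0.31) with shTMLHE 2. Under total counts they turned for EMC7 (0.34 and 0.32), EMC8 (0.17 and 0.23) and FDFT1 (0.11 and 0.17) with both hairpins, NR1H2 (0.049) with shTMLHE 1, and EMC3 (0.45) and CCNE1 (0.29) with shTMLHE 2. Which of these settings is nearer to the RNA content of the cells was not tested. Across alternatives, 606 values of single subunits kept their side of the threshold with no called change of direction, 51 lost and 14 gained a call, and 13 turned. Among the 606, 33 uncalled differences changed sign (13 of EMC2, 11 of EMC6, 4 of EMC7, 2 each of EMC3 and EMC8, 1 of EMC9), such as EMC7 with shTMLHE 1 (0.14 with the trend removed), EMC8 between hairpins (-0.13 with the trend removed, -0.058 under total counts) and EMC6 for CCNE1 (-0.019 under total counts).

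Replicate numbers did not pair the libraries (same-number correlations -0.046 to 0.0080). With the replicate block the calls were 6626, 9231, 11123 and 9124 against 6802, 9338, 11224 and 9277, and the number of subunits called was 1 higher and 2 lower, 3 and 4, 3 and 5, and 5 and 1, as without it.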

Other observations

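Farther from EMC10, single neighbours within 500 kb also separated the groups, and these were chosen after their values were seen. KLK5, a secreted serine protease of the kallikrein cluster, had 0, 0 and 1 counts in control and 42, 32 and 28 in the CCNE1 group. It had 13, 18 and 18 counts with shTMLHE 1 and 6, 6 and 9 with shTMLHE 2. CLEC11A, a secreted lectin-like growth factor, had 78, 79 and 47 counts in control, 56, 37 and 39 in the CCNE1 group, 24, 15 and 36 with shTMLHE 1, and 5, 6 and 3 with shTMLHE 2. MYH14, a non-muscle myosin heavy chain, had 25, 18 and 19 counts in control and 3 to 9 in the other 9 libraries.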
